A study of Homo sapiens with 5 samples.

Results

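Tetraspanins are small membrane proteins that thread repeatedly through the lipid bilayer and carry a large extracellular loop with a conserved cysteine motif. They gather integrins, immunoglobulin superfamily proteins, growth factor receptors and proteases into patches of membrane called tetraspanin-enriched microdomains, and some of them are abundant on extracellular vesicles. In epithelia they are known for their parts in adhesion, cell migration and the trafficking of the receptors they bind. The members described here were all genes of the deposited table named TSPAN and a number, together with CD9, CD37, CD53, CD63, CD81, CD82, UPK1A, UPK1B, ROM1 and PRPH2. The rule found 31 tetraspanin genes among the 37181 genes or assembled loci of the table. The family was chosen by the low TSPAN8 values of resistant cells, so TSPAN8 is described without a test and is left out of every count of changed members. The other members were taken by name, whatever their values.

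HCC827 is a human lung adenocarcinoma cell line with a deletion in exon 19 of EGFR, and both groups carry that deletion. Parental, gefitinib-sensitive HCC827 cells (replicates 2 and 3) were compared with HCC827/GR cells (replicates 1, 2 and 3), a resistant line raised from them by stepwise dosing with gefitinib for over 6 months. The 5 libraries come from 1 derived line and its parent, and nothing in the labels says that replicates were separate cultures, so p-values measure only the spread between these libraries. Expression was given as FPKM, fragments scaled to transcript length and to the library's total, from which the sequencing depth of a library cannot be read. Fold changes set HCC827/GR over HCC827 after adding 1 to each FPKM and taking log2, so the change of a low gene is understated. Rose and fell are used for genes with an adjusted p under 0.05 (limma, two-sided, Benjamini-Hochberg over the 16189 entries averaging 0.5 FPKM or more).

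The libraries of the same cells correlated at 0.913 to 0.927 (Pearson, log2(FPKM + 1), over the entries tested), and those of different cells at 0.851 to 0.873. Of 8 epithelial and lung adenocarcinoma markers, 6 were found, and their summed FPKM was 783 to 957 in HCC827 libraries and 361 to 475 in HCC827/GR libraries. EPCAM, CDH1, KRT18 and NKX2-1 fell among them, while SFTPB stayed at 0.139 FPKM or less in every library. The entry of NKX2-1 also holds transcripts of SFTA3 and AL132857.1. The summed level of 5 leukocyte markers was 28.1 to 29.6 FPKM in HCC827 and 3.91 to 6.15 FPKM in HCC827/GR libraries, nearly all of it LCP1, and PTPRC never exceeded 0.0228 FPKM. For 3 endothelial markers the sum was 3.38 to 4.44 FPKM in HCC827, nearly all of it PECAM1. In HCC827/GR libraries the sum was 0.00297 to 0.0333 FPKM, and PECAM1 was listed at 0 in each. The PECAM1 entry could not be matched to a GENCODE transcript, so the endothelial contrast rests on 1 unplaced entry. For 5 fibroblast markers the sum was 0.667 to 0.885 FPKM against 0.754 to 1.15 FPKM. The epithelial, leukocyte and endothelial sums were lower in every HCC827/GR library, the fibroblast sums overlapped between the groups, and the part of these markers in the tetraspanin results was not tested. In bulk RNA, fewer cells that express a gene and less of its RNA per cell cannot be told apart.

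The most abundant tetraspanin mRNAs in parental cells were CD9, CD63 and TSPAN1, and TSPAN1 dropped out of the leading group in HCC827/GR cells. CD9, which clusters integrins at the cell surface and is a common vesicle marker, made up 29.5% and 29.4% of the summed tetraspanin FPKM in the HCC827 libraries. In the HCC827/GR libraries its share was 17.9%, 15.9% and 19.1%. The share of CD63, a tetraspanin of late endosomes and lysosomes, was 23.2% and 24.5% in HCC827 and 30.5%, 30.7% and 28.0% in HCC827/GR. CD63 therefore took the place of CD9 at the head of the family in every resistant library. TSPAN1, a tetraspanin of secretory epithelia and many carcinomas, held 10.9% and 8.38% of the sum in HCC827 and between 0.621% and 0.953% in HCC827/GR.

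The summed FPKM of all 31 members was 285 and 275 in HCC827 replicates 2 and 3 and 200.4, 188 and 215 in HCC827/GR replicates 1, 2 and 3. Members with a lower mean in HCC827/GR dropped by 100.75 FPKM between them, of which CD9 accounted for 46.6% and TSPAN1 for 25.2%. Members with a higher mean gained 21.6 FPKM. By mean FPKM, TSPAN1 moved from rank 3 of 31 to rank 19 and TSPAN8 from rank 10 to rank 25, while TSPAN12 moved from rank 20 to rank 12 and CD82 from rank 23 to rank 13. At least 1 FPKM was reached by 16 members in each HCC827 library and by 21, 19 and 19 members in the HCC827/GR libraries. The sum was thus lower in every resistant library, and more members reached that level. Both include TSPAN8, which accounted for 5.39% of the drop. They also include TSPAN11, at 1.36 FPKM in HCC827/GR replicate 1, from an entry not matched to a GENCODE transcript. The summed FPKM of all entries ranged from 138854 to 167722 over the 5 libraries. The family's sum and count were not compared with those of the whole table.

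**Figure D1:**
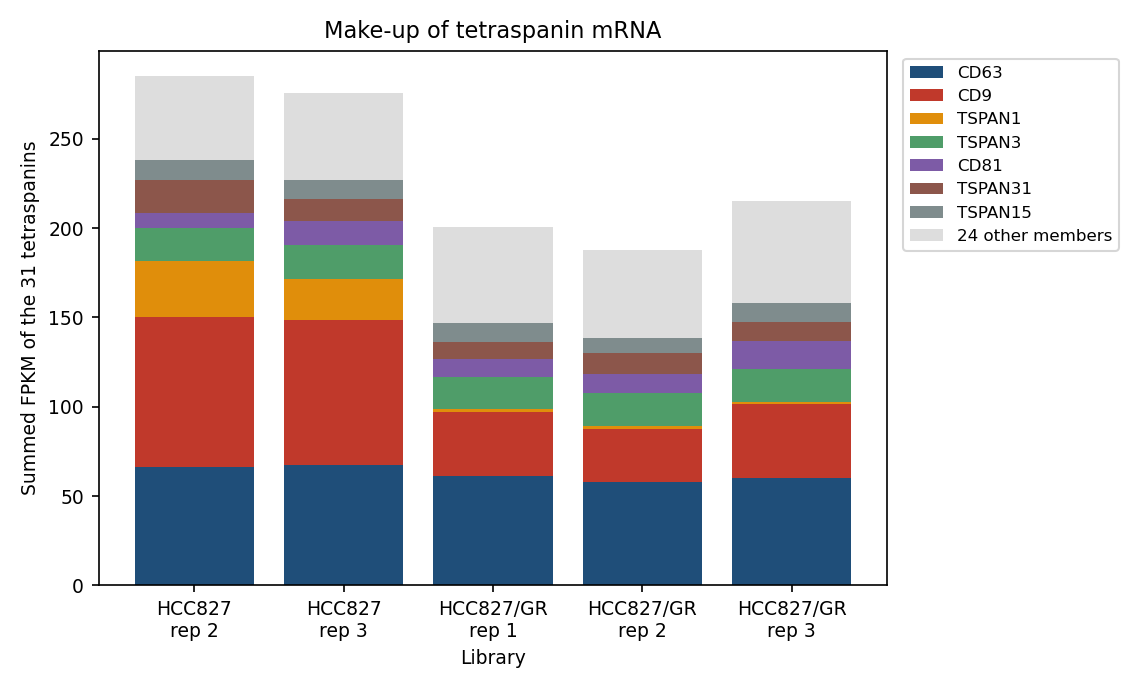
Summed FPKM of the 31 tetraspanins in each of the 5 libraries (linear axis from 0), stacked by gene, with 24 less abundant members joined. The CD63 segment is of similar height throughout, the CD9 segment shrinks from 80.9 FPKM or more to 41.2 FPKM or less, and the TSPAN1 segment is barely visible in the HCC827/GR libraries.

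Among the 22 tested members other than TSPAN8, 3 fell (TSPAN1, CD9 and TSPAN6) and 2 rose (TSPAN12 and TSPAN14). Across all entries tested, 5.71% were lower and 5.26% higher by the same rule, 11% in all, against 22.7% of these members. Libraries of the groups were fully parted for 14 of the 22 members, 8 of them higher and 6 lower in HCC827/GR cells, whereas 46.3% of all entries tested were parted in this way. Among the higher ones, CD82, TSPAN7 and TSPAN10 averaged 0.175, 0.331 and 0.481 FPKM in HCC827. They passed the filter of 0.5 FPKM only through their HCC827/GR values, so the filter has a part in the split by direction. The median log2 fold change of the 22 was 0.01, and that of all entries tested was 0.00. The members are therefore described singly.

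**Figure D2:**
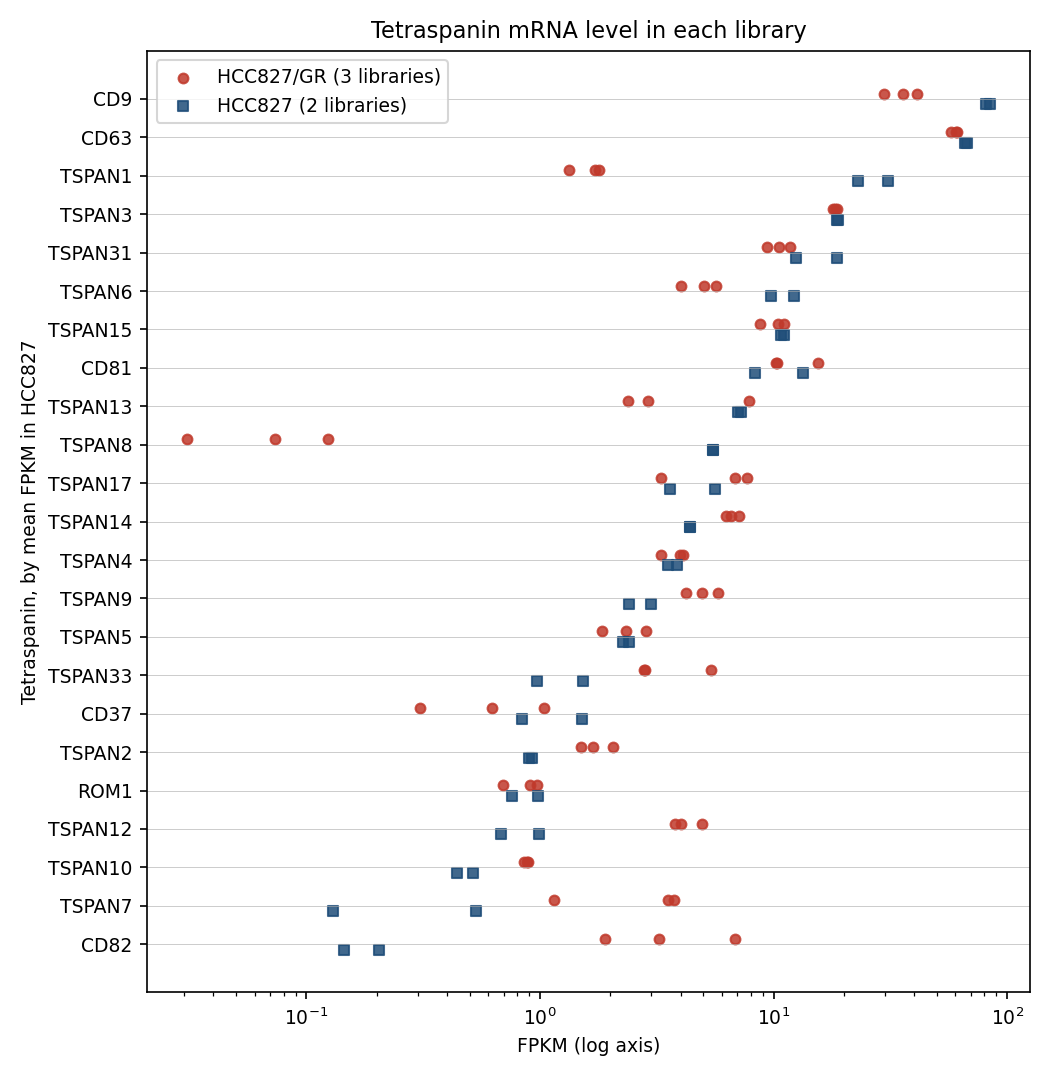
FPKM of the 23 tetraspanins averaging 0.5 FPKM or more (log axis) in the 3 HCC827/GR libraries (circles) and the 2 HCC827 libraries (squares), ordered by the mean in HCC827. TSPAN8 and TSPAN1 show the widest gaps to the left of the parental values, and CD82, TSPAN7 and TSPAN12 the widest to the right. TSPAN8, CD82, CD37, TSPAN13 and TSPAN7 are spread broadly among the resistant libraries.

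TSPAN8, a tetraspanin of gastrointestinal and carcinoma epithelia that associates with EPCAM, claudin-7 and integrins, gave the impulse for looking at the family. It lies on the minus strand of chromosome 12 of GRCh38 (GENCODE 29, from 71125085 to 71441898). Its level was 5.53 and 5.49 FPKM in HCC827 replicates 2 and 3 and 0.0309, 0.123 and 0.0734 FPKM in HCC827/GR replicates 1, 2 and 3. The parental libraries were nearly identical, and every resistant library was close to the lower end of the scale. The mean was 5.51 ± 0.0237 FPKM (SD, n = 2) against 0.0758 ± 0.0462 FPKM (SD, n = 3), a ratio of 72.6, which rests on resistant values near 0. The annotation places 1 other gene over TSPAN8 on the opposite strand, and the counting is not stated to use strand. The log2 fold change was -2.60, and it became -5.03 with a pseudocount of 0.1.

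TSPAN1 showed the largest change of a tested tetraspanin. Replicates 2 and 3 of HCC827 had 31.02 and 23.1 FPKM, and replicates 1, 2 and 3 of HCC827/GR had 1.72, 1.79 and 1.33 FPKM. The lowest parental value was thus far above the highest resistant one. TSPAN1 fell by 3.41 on the log2 scale (standard error 0.17, adjusted p = 0.00239, limma), a ratio of the means of 16.7. It kept an adjusted p under 0.05 when any one library was left out, with log2 fold changes from -3.62 to -3.21. On GRCh38 it occupies 46175073 to 46185958 of chromosome 1, on the plus strand, and it overlaps 2 gene models on the other strand.

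The promoters of genes toward both ends of the family's range are printed here. Each is the 250 bases before the RefSeq transcription start, 5′ to 3′ on the gene's strand (GRCh38.p14), in lower case, with the GC box GGGCGG or its reverse complement CCGCCC in capitals. TSPAN8 (chr12:71158000-71158249, minus strand) and TSPAN1 (chr1:46174837-46175086, plus strand) had lower mRNA in HCC827/GR cells, and TSPAN12 (chr7:120858145-120858394, minus strand) and CD82 (chr11:44565413-44565662, plus strand) had higher mRNA. The windows of TSPAN8, TSPAN12 and CD82 lie wholly within the GENCODE span of the gene, which for CD82 is 44564427 to 44620363. That of TSPAN1 ends just past its GENCODE start at 46175073. RefSeq and GENCODE starts thus differ for these genes, and the CpG and motif counts hold for the RefSeq starts only.
TSPAN8: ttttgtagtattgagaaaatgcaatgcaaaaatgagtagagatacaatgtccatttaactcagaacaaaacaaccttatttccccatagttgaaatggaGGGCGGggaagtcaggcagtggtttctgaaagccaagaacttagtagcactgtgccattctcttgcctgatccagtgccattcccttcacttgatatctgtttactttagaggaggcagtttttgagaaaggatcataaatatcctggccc
TSPAN1: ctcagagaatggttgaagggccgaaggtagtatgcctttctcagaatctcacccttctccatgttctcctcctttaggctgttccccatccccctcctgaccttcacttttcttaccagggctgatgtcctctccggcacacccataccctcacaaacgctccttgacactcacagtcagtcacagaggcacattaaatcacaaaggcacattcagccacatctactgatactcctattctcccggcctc
TSPAN12: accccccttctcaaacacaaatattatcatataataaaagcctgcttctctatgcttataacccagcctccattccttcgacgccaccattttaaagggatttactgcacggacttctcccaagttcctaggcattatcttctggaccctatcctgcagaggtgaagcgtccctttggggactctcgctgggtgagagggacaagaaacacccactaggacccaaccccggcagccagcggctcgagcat
CD82: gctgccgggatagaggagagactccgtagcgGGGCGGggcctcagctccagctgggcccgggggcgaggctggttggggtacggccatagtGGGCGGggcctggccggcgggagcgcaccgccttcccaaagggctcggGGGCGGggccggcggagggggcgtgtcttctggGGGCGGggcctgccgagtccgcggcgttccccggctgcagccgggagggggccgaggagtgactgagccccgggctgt

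The TSPAN8 and TSPAN1 stretches hold 1 and 4 CpG dinucleotides, that of TSPAN12 holds 8 and that of CD82 holds 26, beside a median of 11 over 27305 RefSeq promoters (quartiles 3 and 23). TSPAN6, which also fell, has 3, and CD9 has 10. TSPAN14, which rose, has 45. Members that did not pass the test spanned a similar range, with 43 in TSPAN5, 37 in TSPAN4, 30 in CD63, 22 in TSPAN13 and 4 in TSPAN10. The median of the 18 members averaging 0.5 FPKM or more with a promoter was 13. A link between CpG number and change was not tested. The GC box was found once in TSPAN8 and 4 times in CD82, without overlap between matches, and was not found in TSPAN1 or TSPAN12. It occurs in 12 of the 18 members averaging 0.5 FPKM or more that have a promoter in the RefSeq table and in 42.3% of all promoters of this length. The E-box CAGGTG (or CACCTG on the other strand) was in the window of 4 of the 18, TSPAN2, TSPAN10, TSPAN13 and TSPAN33, and in 17.5% of all promoters. None of the 4 printed stretches holds it. The AP-1 motif TGANTCA was in 3 of the 18 (CD63, ROM1 and TSPAN10) and in 6.596% of all promoters. A match of letters does not show that a factor binds.

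Of the 7 tested members grouped here as classical surface and vesicle tetraspanins (CD9, CD63, CD81, CD82, TSPAN2, TSPAN4 and TSPAN9), 1 fell, 0 rose and 6 did not pass the test (14.3% called, beside 11% of all entries). CD9 had 84.2 and 80.9 FPKM in HCC827 replicates 2 and 3 and 35.9, 29.8 and 41.2 FPKM in HCC827/GR replicates 1, 2 and 3, with no overlap. CD9 fell by 1.20 on the log2 scale (standard error 0.16, adjusted p = 0.0173, limma). The fall kept its direction and size without any one library (-1.31 to -1.08), but the adjusted p was 0.0704 without HCC827/GR replicate 1, 0.101 without HCC827 replicate 2 and 0.0895 without HCC827 replicate 3. Against CD63 of the same library, the CD9 level was 1.27 and 1.20 times as high in HCC827 and 0.586, 0.516 and 0.683 times as high in HCC827/GR. CD9 lies at 6199715 to 6238271 on the plus strand of chromosome 12.

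CD82 (KAI1), widely described as a suppressor of metastasis that restrains integrin and EGFR signalling, was near the floor in parental cells and clearly present in resistant ones. Its level was 0.145 and 0.205 FPKM in HCC827 and 3.23, 1.91 and 6.87 FPKM in HCC827/GR replicates 1, 2 and 3. The lowest resistant value was several times the highest parental value, yet the resistant libraries differed among themselves by 3.60 times. The log2 fold change was 1.97 (standard error 0.44), the largest positive value of the family, with an adjusted p of 0.0580 (limma) that did not pass the threshold. A pseudocount of 0.1 gave a log2 fold change of 3.72 and an adjusted p of 0.0273, the only one of 14 alternatives to pass, in a range from 0.0273 to 0.430.

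CD81, a widely expressed tetraspanin and a co-receptor for viral entry, had 8.29 and 13.3 FPKM in HCC827 and 10.2, 10.3 and 15.5 FPKM in HCC827/GR. The groups overlapped, and the log2 fold change of 0.15 (standard error 0.27) turned to -0.16 without HCC827 replicate 2 and to -0.03 without HCC827/GR replicate 3. CD63 was 66.2 and 67.4 FPKM in HCC827 and 61.2, 57.7 and 60.3 FPKM in HCC827/GR, without overlap but also without passing the test (log2 fold change -0.16, standard error 0.09, adjusted p = 0.313). TSPAN4, known for its part in migrasomes, the vesicles left behind by migrating cells, had 3.52 and 3.85 FPKM in HCC827 and 4.08, 3.31 and 3.96 FPKM in HCC827/GR (log2 fold change 0.03, standard error 0.12). Its resistant values enclosed the parental ones.

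TSPAN9 and TSPAN2 were higher in every HCC827/GR library without passing the test. TSPAN9 had 2.42 and 2.99 FPKM in HCC827 and 5.76, 4.96 and 4.21 FPKM in HCC827/GR (log2 fold change 0.69, standard error 0.15, adjusted p = 0.0577). Its adjusted p was 0.0486 with median-ratio scaling and between 0.0486 and 0.237 over all alternatives. TSPAN9 is also on chromosome 12, from 3077355 to 3286564, and its fold change was opposite in direction to that of CD9. TSPAN2, best known from oligodendrocytes, had 0.924 and 0.896 FPKM in HCC827 and 1.504, 1.68 and 2.05 FPKM in HCC827/GR (log2 fold change 0.52, standard error 0.13, adjusted p = 0.0736).

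**Figure D3:**
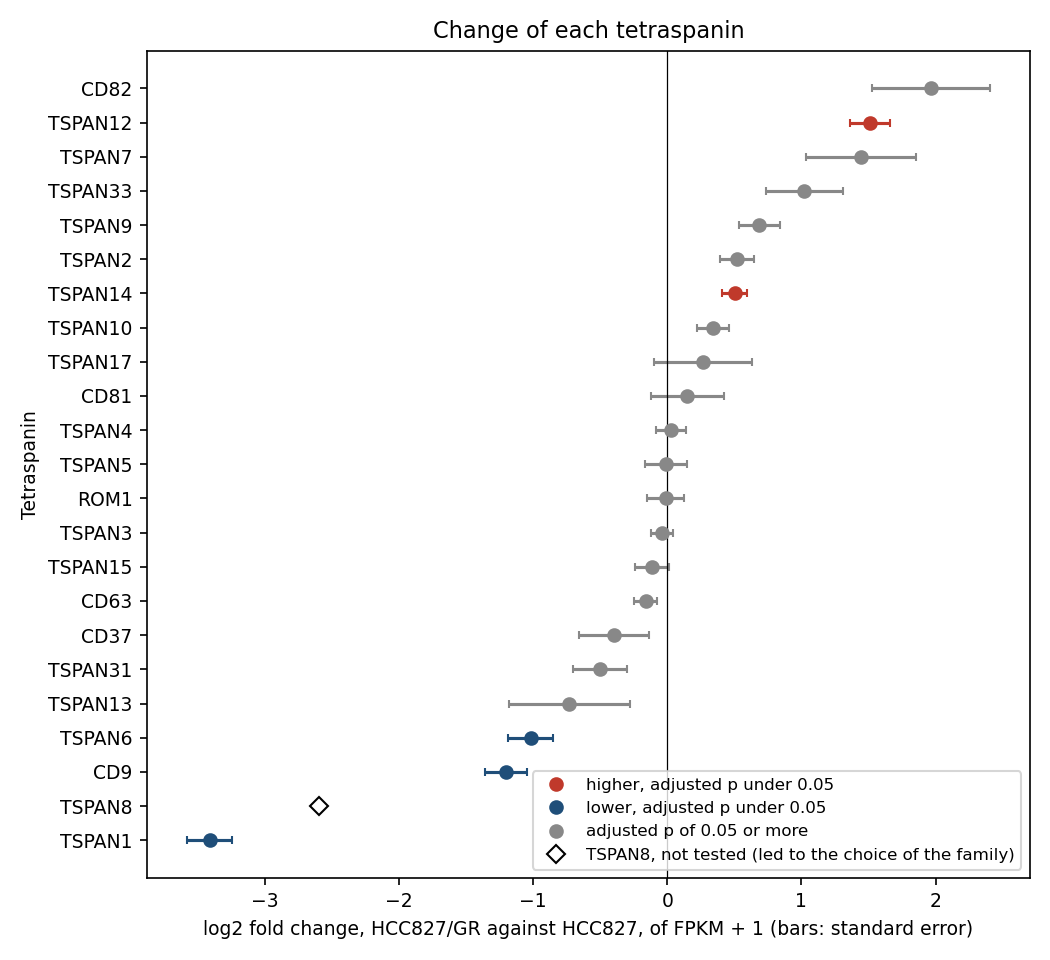
Log2 fold change of FPKM + 1 in HCC827/GR against HCC827 for the 23 tetraspanins with a mean of at least 0.5 FPKM, with standard errors from limma and colours for calls at an adjusted p under 0.05. TSPAN1 stands at -3.41 and TSPAN12 at 1.51, both with short bars, whereas CD82 at 1.97 and TSPAN7 at 1.45 have long bars, and TSPAN8 (open diamond) is shown without a test.

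The TspanC8 tetraspanins, named for their cysteine-rich loop, escort the protease ADAM10 out of the endoplasmic reticulum and steer which substrates it sheds. All 6 were tested, 1 rose and none fell (16.7% called, beside 11% of all entries), and the groups did not overlap in 3, each higher in HCC827/GR cells, beside 46.3% of all entries. Both shares were near the background. TSPAN14 had 4.39 and 4.38 FPKM in HCC827 and 6.24, 7.11 and 6.58 FPKM in HCC827/GR. It rose by 0.50 on the log2 scale (standard error 0.09, adjusted p = 0.0385). The rise kept its direction without any one library (0.46 to 0.54), but the adjusted p was above 0.05 without each of them, at 0.0933, 0.105 and 0.0960 without HCC827/GR replicates 1, 2 and 3 and at 0.132 and 0.123 without HCC827 replicates 2 and 3.

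TSPAN33, which docks ADAM10 at epithelial junctions together with PLEKHA7 and PDZD11, had 0.968 and 1.52 FPKM in HCC827 and 5.38, 2.79 and 2.83 FPKM in HCC827/GR. Every resistant value was above both parental ones (log2 fold change 1.02, standard error 0.29, adjusted p = 0.0998). TSPAN10 had 0.442 and 0.519 FPKM against 0.879, 0.853 and 0.891 FPKM (log2 fold change 0.34, standard error 0.12, adjusted p = 0.155), and passed the filter only through its HCC827/GR values. The other TspanC8 members overlapped between the groups. TSPAN15 had 10.8 and 11.04 FPKM in HCC827 and 10.4, 8.73 and 11.1 FPKM in HCC827/GR (log2 fold change -0.11). TSPAN17 had 3.61 and 5.64 FPKM against 6.81, 3.31 and 7.69 FPKM (log2 fold change 0.26), and TSPAN5 had 2.42 and 2.26 FPKM against 1.85, 2.86 and 2.33 FPKM (log2 fold change -0.01). The sign for TSPAN5 and TSPAN17 turned under some alternatives, as it did for TSPAN4 and ROM1. TSPAN10 overlaps the oppositely oriented gene NPLOC4 in the annotation, and without strand information reads of the pair cannot be told apart. NPLOC4 was far more abundant and also higher in every resistant library, at 11.4 and 11.3 FPKM in HCC827 and 19.0, 13.1 and 18.4 FPKM in HCC827/GR. Its part in the TSPAN10 values was not tested.

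TSPAN12, which strengthens Norrin signalling through the receptor FZD4 and its co-receptor LRP5, showed the clearest rise. It had 0.682 and 0.994 FPKM in HCC827 replicates 2 and 3 and 4.002, 4.96 and 3.78 FPKM in HCC827/GR replicates 1, 2 and 3. The resistant libraries lay close together, well above both parental ones. TSPAN12 rose by 1.51 on the log2 scale (standard error 0.15, adjusted p = 0.0102, limma), a ratio of the means of 5.07. Without HCC827 replicate 2 the log2 fold change was 1.39 and the adjusted p 0.0625, and without each of the other libraries the adjusted p was under 0.05. The gene lies on the minus strand of chromosome 7, from 120787320 to 120858402.

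TSPAN6, a tetraspanin of endosomal sorting, had 12.2 and 9.80 FPKM in HCC827 and 4.04, 5.68 and 5.04 FPKM in HCC827/GR, with no overlap. It fell by 1.02 on the log2 scale (standard error 0.17, adjusted p = 0.0300). The adjusted p was 0.0750, 0.0602 and 0.0822 without HCC827/GR replicates 1, 2 and 3, and 0.136 and 0.0882 without HCC827 replicates 2 and 3, with fold changes from -1.16 to -0.88. TSPAN6 lies on the X chromosome, from 100627109 to 100639991. Of the 10 tested protein-coding genes around it, 5 on each side, 5 also fell and 1 rose (median -0.61). Across all entries tested, 5.71% were lower and 5.26% higher. Members that were not called had called neighbours as well, with 4 higher and 1 lower at CD81 and 3 higher and 1 lower at CD82. For the other called members the 10 neighbours had medians between -0.37, at CD9, and 0.18, at TSPAN1, and for TSPAN8 the median was -0.17. No more than 2 of these 10 neighbours were called in either direction beside CD9, TSPAN1, TSPAN12, TSPAN14 or TSPAN8.

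In TSPAN13, TSPAN7 and CD82, singled out after their values were seen, HCC827/GR replicate 3 stood apart from the other resistant libraries. TSPAN13 had 7.03 and 7.23 FPKM in HCC827 and 2.38, 2.91 and 7.88 FPKM in HCC827/GR replicates 1, 2 and 3, so that replicate 3 exceeded both parental libraries. The groups gave a log2 fold change for TSPAN13 of -0.73 with a standard error of 0.45 (adjusted p = 0.369), which became -1.16 without that replicate (adjusted p = 0.0361, and 0.0361 to 0.589 across the alternatives). TSPAN7, best known from neurons, where it takes part in synapse formation, had 0.130 and 0.533 FPKM in HCC827 and 3.53, 3.74 and 1.15 FPKM in HCC827/GR. The log2 fold change of TSPAN7 was 1.45 (standard error 0.41, adjusted p = 0.101), and without replicate 3 it was 1.82 (adjusted p = 0.0371, and 0.0371 to 0.335 across them). The table entry of TSPAN7 also holds transcripts of PRRG1, so that its value may not be of TSPAN7 alone. CD82 had its highest value in replicate 3. For the 23 members averaging 0.5 FPKM or more, the highest resistant value was a median of 1.38 times the lowest.

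TSPAN31 and TSPAN3 were abundant and did not pass the test. TSPAN31 had 18.8 and 12.4 FPKM in HCC827 and 9.41, 11.7 and 10.6 FPKM in HCC827/GR (log2 fold change -0.50, standard error 0.20, adjusted p = 0.200). A second entry of TSPAN31 had 6.18 and 7.32 FPKM in HCC827 and 5.29, 4.61 and 5.13 FPKM in HCC827/GR. With its entries summed, the log2 fold change was -0.49 and the adjusted p 0.0879 (limma). TSPAN31 overlaps AGAP2 and CDK4 on the opposite strand, and reads of such genes cannot be told apart without strand. CDK4 had 619 and 810 FPKM in HCC827 and 483, 455 and 550 FPKM in HCC827/GR, so it was lower in every resistant library. AGAP2 fell by 1.16 (adjusted p = 0.0106, limma). Their part in the TSPAN31 values was not tested. TSPAN3 had 18.7 and 18.97 FPKM in HCC827 and 17.9, 18.6 and 18.4 FPKM in HCC827/GR. Every resistant value was below both parental ones, although the log2 fold change was only -0.04 (standard error 0.08, adjusted p = 0.806). ROM1, a photoreceptor disc protein, had 0.985 and 0.759 FPKM in HCC827 and 0.904, 0.968 and 0.694 FPKM in HCC827/GR (log2 fold change -0.01), and it overlaps EML3 on the opposite strand.

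The leukocyte and tissue-restricted members were low throughout. CD37, a B-cell tetraspanin, had 1.52 and 0.838 FPKM in HCC827 and 1.04, 0.626 and 0.305 FPKM in HCC827/GR (log2 fold change -0.40, standard error 0.26, adjusted p = 0.392), from a table entry that could not be matched to a GENCODE transcript. A second entry of CD37 had 0.492 and 0.560 FPKM in HCC827 and 0.445, 0.608 and 0.265 FPKM in HCC827/GR. The other 8 members did not reach a mean of 0.5 FPKM and were not tested. CD53, PRPH2, TSPAN16, TSPAN18, TSPAN32 and UPK1A stayed at or below 0.123 FPKM in every library, with overlapping groups. UPK1B, a uroplakin of the bladder lining, had 0.0165 and 0.0186 FPKM in HCC827 and 0.396, 0.371 and 0.295 FPKM in HCC827/GR, a ratio of 20.2 between low means. TSPAN11 reached 1.36 FPKM in replicate 1 and 0.817 FPKM in replicate 2 of HCC827/GR, while the other 3 libraries were listed at 0, and its second entry in the table, at 0.0233 to 0.539 FPKM, did not show this pattern. Like that of CD37, the TSPAN11 entry used could not be matched to a GENCODE transcript.

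The proteins with which tetraspanins form complexes were looked up from a list of 36 genes, of which 35 were found and 27 tested. Of these, 1 rose and 9 fell, or 37% against 11% of all entries, with a median log2 fold change of -0.07. The list was written with earlier results of these data known, so this share describes the list and tests nothing. EPCAM, an epithelial adhesion molecule bound by TSPAN8 and CD9, had 86.9 and 72.6 FPKM in HCC827 and 7.32, 10.8 and 8.53 FPKM in HCC827/GR. It fell by 3.04 on the log2 scale (standard error 0.19, adjusted p = 0.00349), and is also one of the epithelial markers above. CLDN7, which joins EPCAM to TSPAN8, fell by 0.40 (standard error 0.08, adjusted p = 0.0486), from a table entry that also holds transcripts of CTDNEP1 and GABARAP. Some partner genes that did not pass are named as well, chosen after their values were seen. CD44, known from the same complex, was higher in every HCC827/GR library, at 26.7, 29.45 and 32.4 FPKM against 21.9 and 19.9 FPKM, without passing the test (adjusted p = 0.0757). MET did not pass either and was lower in every HCC827/GR library, at 78.9, 74.3 and 67.2 FPKM against 100.8 and 123.6 FPKM (log2 fold change -0.60, adjusted p = 0.0621, limma). PLEKHA7 was likewise lower in each (log2 fold change -0.65, adjusted p = 0.119, limma).

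**Figure D4:**
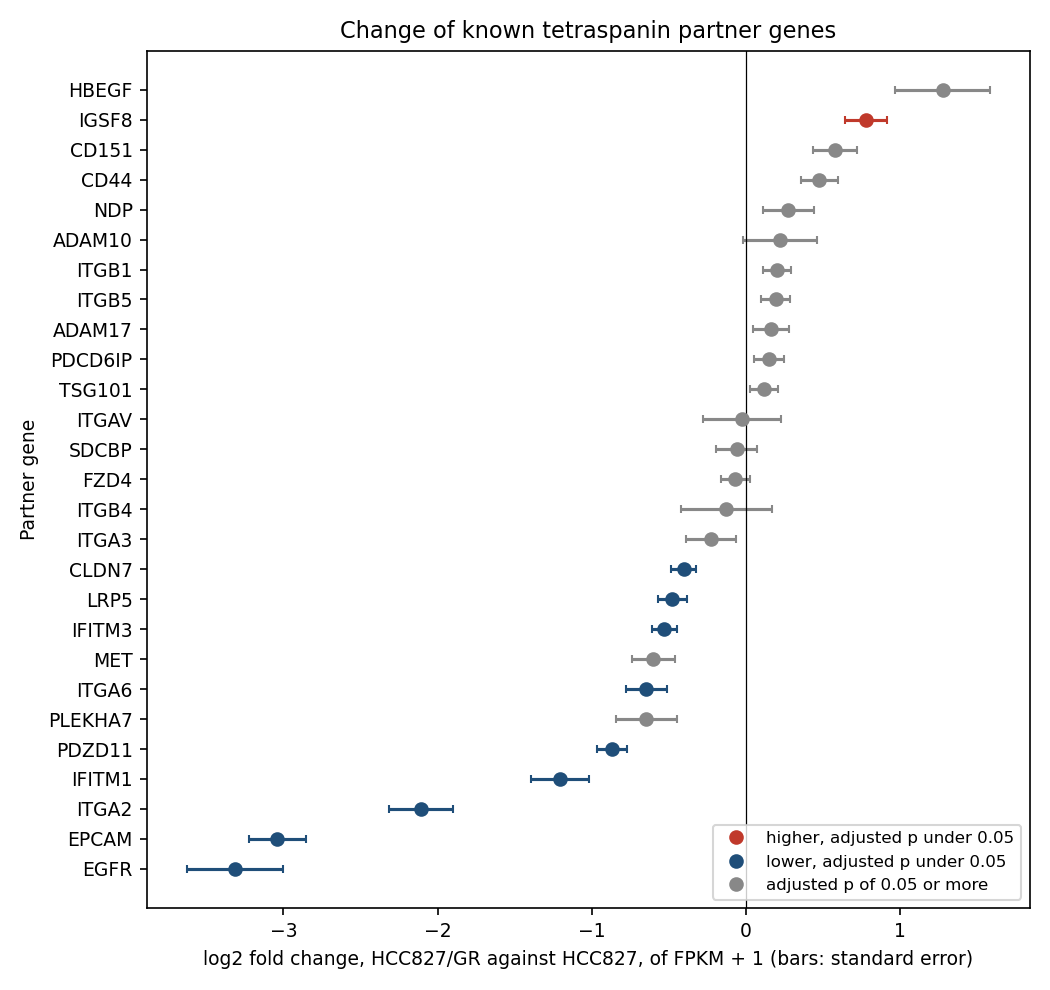
Log2 fold change of FPKM + 1 in HCC827/GR against HCC827 for the 27 tested partner genes of tetraspanins, with standard errors from limma and colours for calls at an adjusted p under 0.05. EGFR and EPCAM lie below -3, ITGA2 near -2.11, and IGSF8 at 0.78 is the single call on the right.

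Of the 7 tested integrin chains, 2 fell and 0 rose, where 5.71% of all entries fell and 5.26% rose. ITGA2, the collagen-binding chain, had 15.5 and 10.1 FPKM in HCC827 and 2.26, 2.42 and 1.79 FPKM in HCC827/GR and fell by 2.11 (standard error 0.21, adjusted p = 0.0100). ITGA6, a laminin-binding chain, fell by 0.64 (standard error 0.13, adjusted p = 0.0482). The most abundant chain, ITGB1, ranged from 106 to 112 FPKM in HCC827 and from 121 to 131 FPKM in HCC827/GR (log2 fold change 0.20, standard error 0.09, adjusted p = 0.249). ITGA3, the laminin-binding chain most tightly tied to CD151, overlapped between the groups (log2 fold change -0.22, standard error 0.16). CD151 itself, a tetraspanin outside the naming rule, had 20.1 and 20.4 FPKM in HCC827 and 30.2, 35.8 and 27.1 FPKM in HCC827/GR (log2 fold change 0.58, standard error 0.14, adjusted p = 0.0706). IGSF8, an immunoglobulin superfamily protein that binds CD9 and CD81 directly, rose by 0.78 (standard error 0.14, adjusted p = 0.0335), from 4.57 and 4.05 FPKM to 8.89, 8.63 and 6.94 FPKM.

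EGFR, whose signalling CD82 is described as restraining, fell by 3.31 (standard error 0.31, adjusted p = 0.00926, limma). HBEGF, an EGFR ligand whose membrane form binds CD9, had 1.46 and 1.43 FPKM in HCC827 and 6.00, 2.98 and 6.47 FPKM in HCC827/GR (log2 fold change 1.28, standard error 0.31, adjusted p = 0.0688). ADAM10, the protease served by the TspanC8 group, had 11.3 and 15.5 FPKM in HCC827 and 13.3, 20.5 and 13.9 FPKM in HCC827/GR, and the groups overlapped (log2 fold change 0.22, standard error 0.24). PDZD11, which links TSPAN33 to junctions, fell by 0.87 (standard error 0.10, adjusted p = 0.0124), and LRP5, the co-receptor served by TSPAN12, fell by 0.48 (standard error 0.09, adjusted p = 0.0415). FZD4 ranged from 4.10 to 4.70 FPKM over all libraries. IFITM1 and IFITM3, antiviral proteins that associate with CD81, fell by 1.21 (adjusted p = 0.0254) and 0.53 (adjusted p = 0.0251). The entry of IFITM1 also holds IFITM2 transcripts, and these near-identical genes may share reads. SDCBP, PDCD6IP and TSG101, which sort cargo into vesicles, had log2 fold changes of -0.06, 0.15 and 0.12 with adjusted p-values from 0.402 to 0.828.

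ITGA2 and EPCAM kept an adjusted p under 0.05 without any one library, EGFR without 3 of the 5, PDZD11 without 2, and IGSF8, ITGA6 and IFITM1 without 1 of the 5. CLDN7, IFITM3 and LRP5 lost it whichever library was left out. The L6 family (TM4SF genes) has a similar topology but is not related by sequence to the true tetraspanins. Of its 6 members 4 were tested and none rose or fell (limma, 2 of 4 with an unadjusted p under 0.05), which at 11% of all entries called says little. The groups overlapped in 2 of the 4 and were parted in 2, beside 46.3% of all entries tested, which says as little. Both parted genes, TM4SF4 and TM4SF18, were lower in HCC827/GR cells. The largest log2 fold change was -0.79, for TM4SF18 (standard error 0.24, adjusted p = 0.121, limma).

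In the deposited annotation, 28 of the 31 members carried Gene Ontology terms. Extracellular exosome was attached to 12 of them, CD9, CD53, CD63, CD81, CD82, TSPAN1, TSPAN3, TSPAN6, TSPAN8, TSPAN15, UPK1A and UPK1B. Integrin binding was attached to CD9, TSPAN4 and TSPAN8, and enzyme binding to TSPAN5, TSPAN14, TSPAN15, TSPAN17 and TSPAN33, which are members of the TspanC8 group.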

How the data were processed

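The authors deposited 1 FPKM value per gene or assembled locus and library, made per the labels and the study's methods with Cutadapt, FastQC, Bowtie2, TopHat2, StringTie and Ballgown (versions are not given in the sources used here). The submitters' notes name hg18, but 135164 of the 135299 Ensembl transcripts in the table were found in GENCODE 29 (GRCh38), from which positions were taken. One FPKM column matched no sample and was not used. The labels describe a small-RNA library and the methods an mRNA library, and protein-coding genes took 66.6% to 78.4% of the FPKM of a library. Depth is unknown, so no counting error could be given.

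Where a symbol had several entries, the one with the highest mean was used. Entries averaging 0.5 FPKM or more were compared as log2(FPKM + 1) with limma 3.58.1 in R 4.3.3 (lmFit, eBayes with trend, two-sided, Benjamini-Hochberg over all 16189). An exact permutation test of 3 against 2 libraries cannot go below p = 0.1 and was not used. The alternatives are those in the closing section. The members, the roles and the lists of partner, L6 family and marker genes were chosen with earlier results of these data known. By the rule for named genes, every member averaging 0.5 FPKM or more was given with its value in each library, lower members by their range, and partner genes where they passed the test, and other partner genes named were chosen after their values were seen. Promoters are RefSeq (GRCh38.p14), matched by symbol for 24 of 31 members. Python 3.11.15, numpy 2.4.6, pandas 2.3.3 and matplotlib 3.10.9 were used for the other steps. PTGFRN, KRT7, NAPSA and CD3E were not analysed here.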

Additional observations from a re-analysis of the deposited data

How the results depend on the processing

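All 5 called tetraspanins kept their direction in each of 14 alternatives (5 in which a library was left out, and 9 with a smaller pseudocount of 0.1, all entries kept, only those averaging 1 FPKM or more kept, scaling by median ratios, quantiles made equal, no trend in limma, a Ballgown-type model with library size, the replicate block, or summed entries per symbol). With no filter on low values, 1 tetraspanin rose (TSPAN12), 2 fell, and 5 partner genes were called. The Ballgown-type model called 0 tetraspanins higher, 0 lower and 0 partner genes by adjusted p, although 5, 3 and 10 had an unadjusted p under 0.05, and it called 6 entries higher and 9 lower in the whole table. With the replicate number as a block the counts were also 0, 0 and 0 (6, 4 and 15 at an unadjusted p under 0.05), with no call in the whole table. Both fits leave fewer residual degrees of freedom. Deviations of same-numbered libraries from their group means correlated at 0.03 and 0.01. With 2 HCC827 libraries these deviations mirror each other, so the 2 values are not separate checks. Whether the numbers pair the libraries is thus not settled. Leaving out 1 library gave 0 to 2 tetraspanins higher, 1 to 3 lower and 2 to 6 partner genes called, with 0 higher (3 at an unadjusted p under 0.05) without HCC827 replicate 2. TSPAN1 was called in each of these. No scaling moved the median log2 fold change of all entries beyond 0.02. Depth is unknown, so values near 0 FPKM, such as TSPAN8 in HCC827/GR cells, have no stated precision.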
